A study of Homo sapiens with 6 samples.

Results

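The annexin family was followed in HCT116, an established human colorectal carcinoma line, after knockdown of ADNP, a nuclear DNA-binding protein that acts in chromatin. The cells received either siADNP, an siRNA against ADNP, or siControl, and total RNA was sequenced from 3 libraries of each treatment. The 10 members (ANXA1, ANXA2, ANXA3, ANXA4, ANXA5, ANXA6, ANXA7, ANXA9, ANXA11 and ANXA13) were taken by symbol from a count table with 23368 gene rows. The family was chosen by the values of its members in this same comparison, in which ANXA1 is one of the larger falls. Differences of members are therefore given as a description, without p-values. The labels give no transfection time, dose or siRNA sequence, and do not say whether replicates came from separate cultures, so the spread between libraries may be partly technical.

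Annexins are cytosolic proteins that bind acidic phospholipids in a calcium-dependent way. They share a conserved core of repeats and differ in a short amino-terminal head, which is where partners such as S100 proteins dock. In epithelial cells they are known for linking membranes to actin, for endosome traffic and for sealing torn plasma membrane.

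Reads assigned to genes numbered 7396771 to 10265175 per library. ADNP itself stood at 53.9 ± 6.61 CPM (SD, n = 3; CPM are a gene's reads per 1000000 reads assigned to genes) with siADNP and at 164 ± 8.23 CPM with siControl, and no siADNP library reached the control range. The epithelial markers KRT8, KRT18, KRT19 and EPCAM were abundant, with means of 1295, 966, 491 and 335 CPM in siControl, whereas CDX1 and VIL1 had 0 reads and KRT20 was near 1 CPM. Of the 6 epithelial markers tested, KRT19 fell (log2 fold change -0.15, adjusted p = 0.0203, edgeR; groups not overlapping) and 5 did not pass, and the part of KRT19 in the results was not tested. The 9 epithelial markers together summed to 3014 to 3225 CPM with siADNP and to 3123 to 3187 CPM with siControl. The 6 fibroblast markers together reached at most 10.3 CPM and DCN, LUM and PDGFRA were at 0 reads. The 5 blood markers, mostly CD68, lay between 9.39 and 10.5 CPM with siADNP and between 7.10 and 7.61 CPM with siControl. CD68, the 1 blood marker tested, rose (log2 fold change 0.42, adjusted p = 0.0366, edgeR, groups not overlapping). The part of the blood markers in the results was not tested. The 3 endothelial markers together stayed at or below 1.01 CPM in every library.

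The summed CPM of the 10 members were lower after ADNP knockdown, and most of the decrease in CPM lay in ANXA1 and ANXA2. The members were chosen by these values, so the lower sum supports nothing further. The 10 members together summed to 1758, 1701 and 1805 CPM after siADNP, against 2084, 2091 and 2103 CPM in control, so that the groups did not overlap and siADNP stood at 83.8% of control. ANXA1 accounted for a mean difference of -139 CPM and ANXA2 for -107 CPM. These CPM are not scaled by transcript length. As CPM per kb of the longest transcript, control and siADNP means were 155 and 91.5 for ANXA1. They were 217 and 186 for ANXA2, and 167 and 139 for ANXA5. The sum without ANXA1 and ANXA2 was at 90.7% of control, with 895 ± 20.3 against 987 ± 13.8 CPM (SD, n = 3). Within it the mean difference was -48.1 CPM for ANXA5, -40.6 for ANXA3, -22.0 for ANXA4 and -4.79 for ANXA11. Means were higher for ANXA6 (by 20.7 CPM), ANXA7 (2.55) and ANXA9 (0.37).

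Of the 10 members, 9 had enough reads to be tested. In edgeR's quasi-likelihood test over all 12489 tested genes, 5 members (ANXA1, ANXA2, ANXA3, ANXA4 and ANXA5) were lower at an adjusted p under 0.05, 1 (ANXA6) was higher, and 3 (ANXA7, ANXA9 and ANXA11) did not pass. Over all tested genes 28.3% passed, 13.7% lower and 14.6% higher. The same 6 members were those whose groups did not overlap, a condition met by 40.8% of tested genes. The median log2 fold change of the tested members was -0.22, beside -0.0013 for all tested genes. Since the members were chosen with these values known, nothing is read from these counts.

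**Figure D1:**
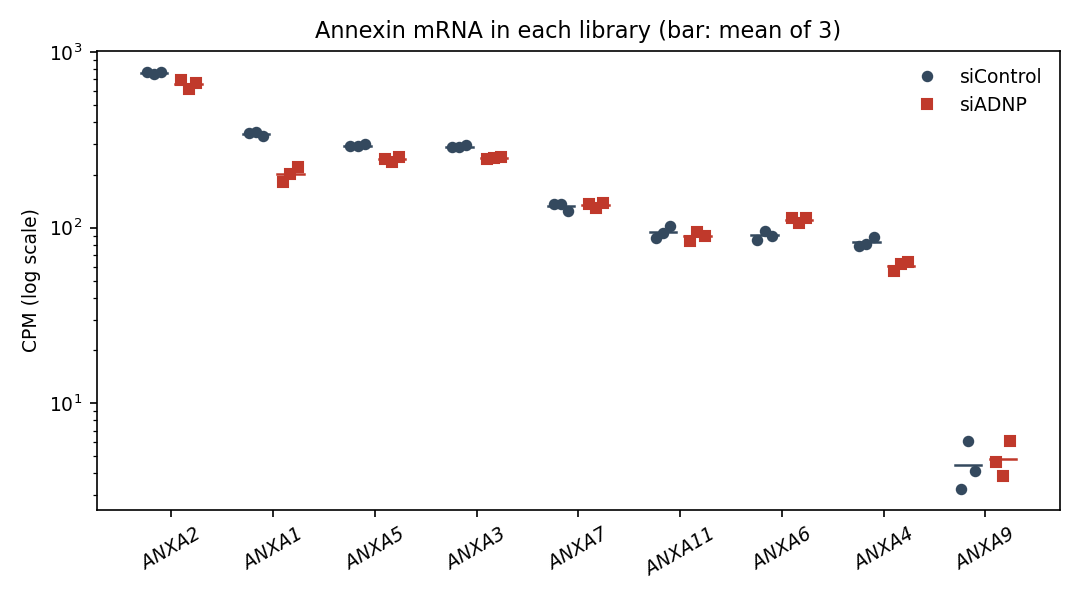
Abundance of the 9 tested annexins in each library, in CPM on a log axis, with siControl as circles, siADNP as squares and a bar at the mean of 3 libraries. ANXA1 shows the widest gap between the groups (183 to 222 against 331 to 350 CPM), ANXA6 is the member whose siADNP libraries all lie above control, and ANXA9 has few reads, near 5 CPM.

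The promoters of 4 members are shown as examples: ANXA1, ANXA2 and ANXA4 were lower with siADNP and ANXA6 was higher. ANXA3 and ANXA5 were also lower, and their promoters are not printed. The ANXA3 window held no match to the 5 motifs below, and that of ANXA5 held 1 SP1 match. Each line holds the 250 bases before a transcription start in RefSeq (GRCh38.p14), 5′ to 3′ on the strand of the gene, with ANXA1 at chr9:73151615-73151864 (plus strand), ANXA2 at chr15:60397987-60398236 (minus), the upstream start of ANXA4 at chr2:69643558-69643807 (plus) and the upstream start of ANXA6 at chr5:151157780-151158029 (minus). Capitals mark matches, on either strand, to 5 motifs: the TATA motif TATAAA, the CAAT-box motif CCAAT, the SP1 motif GGGCGG, the AP-1 motif TGANTCA and the E-box motif CACGTG.
ANXA1: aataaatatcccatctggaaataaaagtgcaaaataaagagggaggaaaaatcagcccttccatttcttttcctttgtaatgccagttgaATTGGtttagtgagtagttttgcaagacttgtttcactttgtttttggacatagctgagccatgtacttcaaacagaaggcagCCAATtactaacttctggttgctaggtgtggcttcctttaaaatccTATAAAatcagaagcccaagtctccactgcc
ANXA2: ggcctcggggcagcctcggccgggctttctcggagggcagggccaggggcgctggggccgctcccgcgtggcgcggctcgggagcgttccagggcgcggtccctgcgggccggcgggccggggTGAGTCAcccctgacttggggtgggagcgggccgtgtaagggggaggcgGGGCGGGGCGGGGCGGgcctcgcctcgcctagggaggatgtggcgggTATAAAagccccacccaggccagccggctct
ANXA4: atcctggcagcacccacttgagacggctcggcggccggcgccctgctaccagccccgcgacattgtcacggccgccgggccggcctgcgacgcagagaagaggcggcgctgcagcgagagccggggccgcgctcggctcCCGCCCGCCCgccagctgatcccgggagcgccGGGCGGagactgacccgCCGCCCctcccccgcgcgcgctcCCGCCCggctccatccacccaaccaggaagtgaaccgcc
ANXA6: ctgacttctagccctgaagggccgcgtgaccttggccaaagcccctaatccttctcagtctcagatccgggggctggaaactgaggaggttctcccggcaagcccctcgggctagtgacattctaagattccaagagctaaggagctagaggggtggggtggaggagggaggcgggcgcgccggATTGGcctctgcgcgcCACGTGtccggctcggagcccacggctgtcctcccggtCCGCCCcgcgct

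The ANXA1 promoter differed in composition from those of the other members. It held 0 CpG dinucleotides and 38.4% GC, with a TATA motif beginning 31 bases before the start and CAAT-box matches beginning 77 and 160 bases before it. ANXA2 also had a TATA motif 31 bases before its start, but within 28 CpG and 78.0% GC, with 3 SP1 matches, neighbours among them sharing a base, and an AP-1 match 127 bases before the start. The ANXA4 promoter held 36 CpG and 5 SP1 matches, of which the pair farthest from the start overlap, and no TATA motif. The ANXA6 promoter held 19 CpG, 1 SP1 match, 1 CAAT-box match and 1 E-box match. The other ANXA6 start held 10 CpG and no match to the motifs. At the other start of ANXA4, a member that was lower, there were 1 E-box match and 3 SP1 matches. RefSeq promoters were found for 9 members, with 13 starts in all, and ANXA13 had no entry. Of these 13, 1 had no CpG (ANXA1), 3 had a TATA motif, 4 a CAAT-box match, 7 an SP1 match, 1 an AP-1 match and 2 an E-box match. The window of ANXA10, an annexin not among the members, also held 0 CpG, with 31.2% GC and a TATA motif 29 bases before its start.

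Across all 35116 RefSeq promoters of this length, 6.06% had no CpG and the median was 11 CpG. The TATA motif was found in 10.7% of them, the CAAT-box motif in 32.0%, the SP1 motif in 42.6%, the AP-1 motif in 6.57% and the E-box motif in 6.34%. The median over the 13 promoters of members was 19 CpG. Among the promoters of the members that were lower, CpG counts ran from 0 (ANXA1) through 18 (ANXA3), 28 (ANXA2) and 31 (ANXA5) to 36 (ANXA4, at the start printed, and 21 at its other start). These matches describe the letters in the window only.

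**Figure D2:**
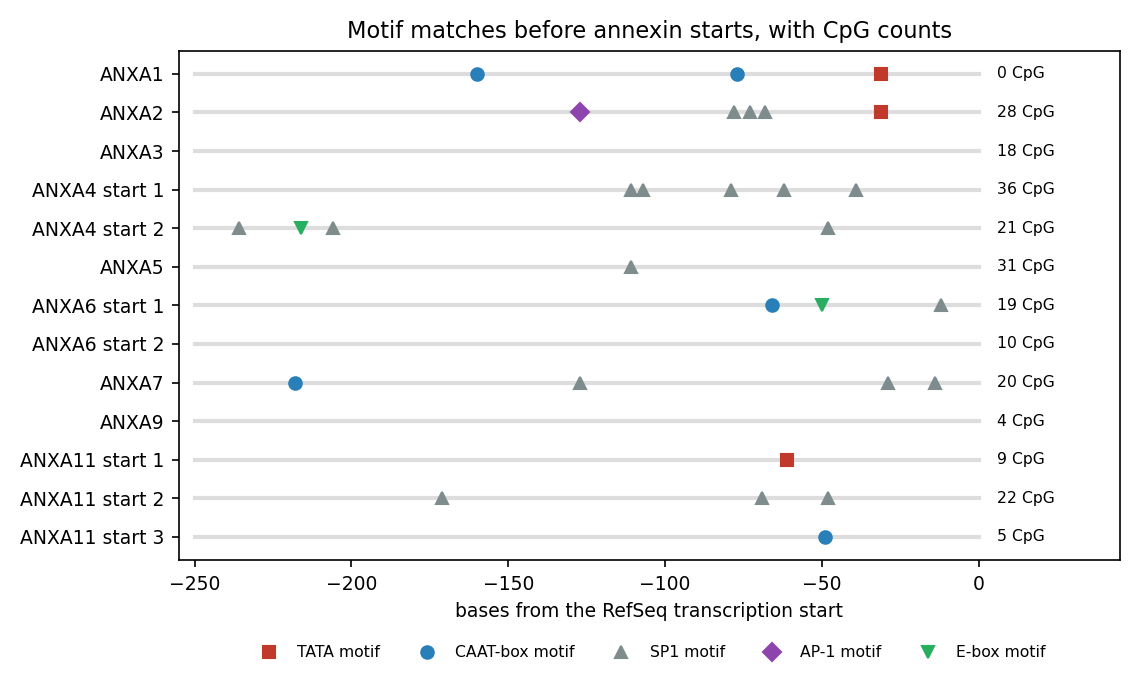
Motif matches in the 250 bases before each of 13 RefSeq starts of annexin members, placed by distance from the start, with the CpG count of each window at the right. ANXA1 is the row with 0 CpG, and ANXA1 and ANXA2 both have a TATA motif 31 bases before the start.

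ANXA1, an inhibitor of cytosolic phospholipase A2, a substrate of the EGF receptor kinase and, when secreted, an agonist of formyl peptide receptors, differed most. It measured 183, 202 and 222 CPM with siADNP but 344, 350 and 331 CPM with siControl. All 3 siADNP libraries lay well below all control libraries, and they also differed more among themselves (coefficient of variation 9.74%, against 2.87% in control). The mean fell from 342 ± 9.79 to 202 ± 19.7 CPM (SD, n = 3), to 59.1% of control, with a log2 fold change of -0.76 ± 0.05 (SE). Ordered by log2 fold change, ANXA1 was 84th from the lowest of 12489 tested genes.

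ANXA4, an epithelial annexin that assembles into arrays on membranes, showed the next largest decrease. Its values were 56.4, 62.1 and 63.5 CPM with siADNP and 78.8, 81.1 and 88.0 CPM with siControl. Every siADNP library was below every control library, and the log2 fold change was -0.44 ± 0.07 (SE), or 73.5% of control.

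ANXA2 joins S100A10 in a complex beneath the plasma membrane that binds plasminogen at the cell surface and links membranes to actin. It measured 689, 618 and 664 CPM after siADNP and 768, 751 and 773 CPM in control. The groups were separate, and siADNP replicate 2 was the lowest library. The log2 fold change was -0.22 ± 0.05 (SE), or 86.0% of control, a smaller relative decrease than that of ANXA1 or ANXA4. ANXA2 has processed copies elsewhere in the genome, and reads without a unique alignment were not assigned to any gene. Of these copies ANXA2P2 took 78 reads over the siADNP and 123 over the siControl libraries (log2 fold change -0.46 ± 0.23, adjusted p = 0.135, edgeR), ANXA2P3 took 2 and 3 reads, and ANXA2P1 had 0.

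ANXA5, which coats membranes that expose phosphatidylserine and is widely used as a probe of dying cells, measured 246, 237 and 253 CPM with siADNP and 292, 291 and 298 CPM with siControl. ANXA3 measured 246, 248 and 254 CPM against 288, 287 and 294 CPM. Both were lower in each siADNP library than in any control library, by narrow but regular steps. The log2 fold changes were -0.26 ± 0.05 for ANXA5 and -0.22 ± 0.05 for ANXA3 (SE), and within-group coefficients of variation did not pass 3.31% for either gene.

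ANXA6 went the other way. This member carries a duplicated annexin core and is known as a membrane scaffold for the Ras inhibitor RASA1 and for protein kinase C alpha. It measured 113, 107 and 113 CPM with siADNP and 85.0, 96.2 and 89.7 CPM with siControl, so that all siADNP libraries were above all control libraries. The log2 fold change was 0.29 ± 0.06 (SE), or 123% of control.

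ANXA7 and ANXA11, the members with long amino-terminal heads that bind the calcium sensors PDCD6 and, for ANXA7, sorcin, showed overlapping groups. ANXA7 measured 136, 130 and 139 CPM against 137, 136 and 124 CPM, with a log2 fold change of 0.03 and a 95% interval from -0.09 to 0.14. ANXA11 measured 84.0, 94.3 and 90.0 CPM against 87.9, 93.2 and 102 CPM, with -0.07 and an interval from -0.20 to 0.05. Both intervals end short of the log2 fold changes of ANXA6, ANXA4 and ANXA1. They reflect only the spread between these libraries, which may be partly technical, so a change of that size is not excluded.

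ANXA9, an atypical member whose core has lost its calcium sites, was weakly expressed. Its values were 4.62, 3.85 and 6.09 CPM with siADNP and 3.25, 6.09 and 4.09 CPM with siControl, from 115 and 125 reads in all. The groups overlapped widely and the 95% interval of the log2 fold change, from -0.38 to 0.54, is too wide to tell a difference of the size seen in ANXA2 or ANXA6 from no difference. ANXA13, known from intestinal epithelium, had 0 reads with siADNP and 1 read with siControl, which is too few to test or to give a fold.

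**Figure D3:**
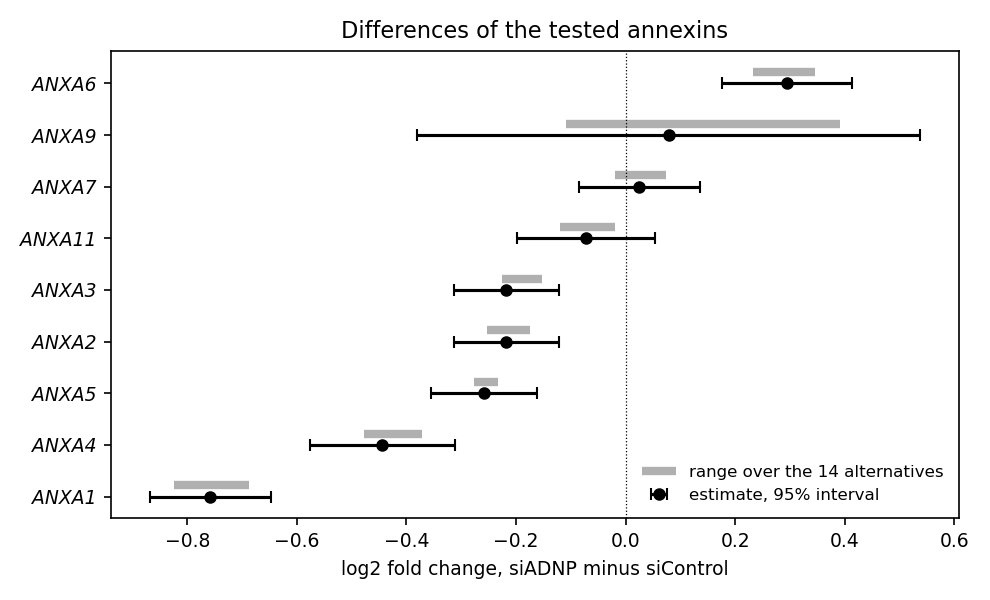
Log2 fold change (siADNP minus siControl) of the 9 tested annexins, with 95% intervals in black and, in grey above each, the range over 14 alternative analyses. ANXA1 (-0.76) lies apart at the bottom, 4 members lie between -0.44 and -0.22, ANXA6 (0.29) lies above 0, and the intervals of ANXA7, ANXA9 and ANXA11 include 0.

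The table holds 17 rows whose symbols begin with ANXA. Of the 7 that are not members, ANXA10, an atypical annexin of gastric epithelium, was well expressed and measured 62.2, 58.5 and 67.6 CPM with siADNP and 68.9, 70.9 and 71.5 CPM with siControl. It passed the threshold narrowly (log2 fold change -0.17 ± 0.07, adjusted p = 0.0473, edgeR), and over 14 alternatives its adjusted p ranged from 0.0226 to 0.244. The call ended in 11 of them, among them DESeq2 (0.161), the GC offset (0.229) and leaving out siADNP replicate 1 (0.0988) or 2 (0.231) or siControl replicate 1 (0.0702), 2 (0.117) or 3 (0.112). ANXA8 and its near-identical copies ANXA8L1 and ANXA8L2 were listed at 0 reads in every library. Reads that align to several copies are not assigned to a gene, so these zeros do not show that the genes are silent.

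Members were ordered by level per length, as CPM per kb of the longest GENCODE transcript, in the control libraries. ANXA2 was highest with 217 ± 3.34 CPM per kb (SD, n = 3), followed by ANXA5 with 167 ± 2.20, ANXA1 with 155 ± 4.43, ANXA3 with 98.8 ± 1.19 and ANXA7 with 53.9 ± 2.99 CPM per kb. Below these came ANXA6 with 34.8 ± 2.17, ANXA4 with 18.7 ± 1.09, ANXA11 with 13.5 ± 0.994 and ANXA9 with 2.45 ± 0.800 CPM per kb. No neighbours in this order had overlapping ranges in control. ANXA2, ANXA5 and ANXA1 held 28.5%, 21.9% and 20.4% of the members' summed level per kb. With siADNP, ANXA1 came down to 82.7 to 101 CPM per kb, a range that contains that of ANXA3 (83.9 to 86.6).

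The order depends on the length taken for each gene, since the transcripts these cells use are not known. With the median transcript length, ANXA2 kept rank 1 and ANXA7 rank 5, but ANXA1 took rank 2, ANXA3 rank 3 and ANXA5 rank 4, ANXA11 moved from rank 8 to 6 and ANXA6 from rank 6 to 8. The ranges of ANXA11, ANXA4 and ANXA6 then overlapped from one neighbour to the next.

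**Figure D4:**
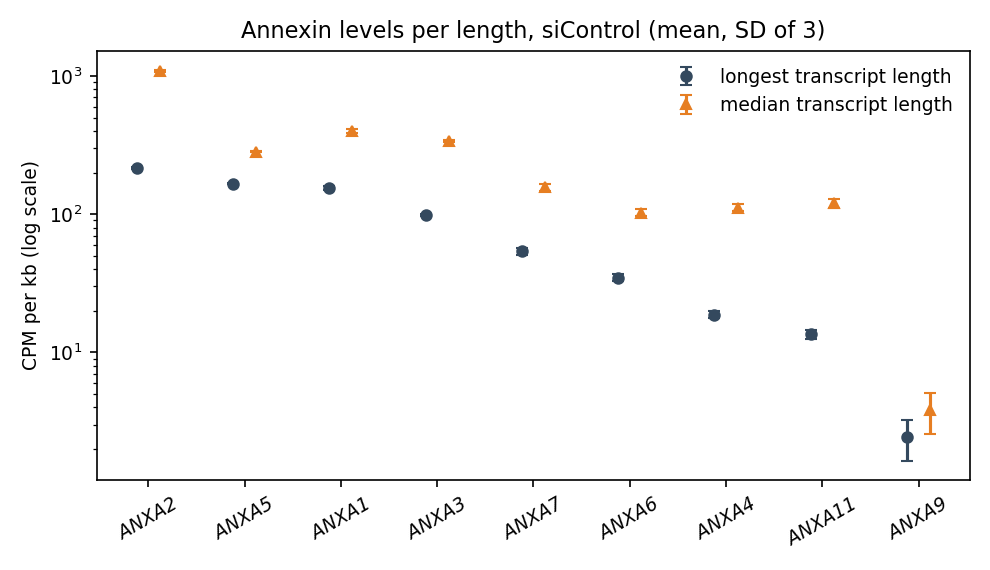
Level of 9 annexins in the siControl libraries, in CPM per kb on a log axis, as the mean with SD of 3 libraries, for the longest transcript (circles) and the median transcript length (triangles) of each gene. ANXA2 is highest and ANXA9 lowest by both lengths, while ANXA5 changes from rank 2 to rank 4.

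The members that were lower have transcripts of low GC content, and GC content moved with the comparison in general. The longest transcripts of ANXA4, ANXA1, ANXA3, ANXA2 and ANXA5 held 38.9%, 39.3%, 40.0%, 44.0% and 46.3% GC, and that of ANXA6 held 56.0%. Among the members that did not pass, ANXA7 had 42.8%, ANXA11 52.3% and ANXA9 55.2%. Over all tested genes the median was 43.0% for those called lower, 54.0% for those called higher and 48.6% for the rest. With a GC-dependent offset fitted in each library, the log2 fold changes were -0.69 for ANXA1, -0.37 for ANXA4, -0.24 for ANXA5, -0.18 for ANXA2, -0.15 for ANXA3 and 0.23 for ANXA6.

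Several of the genes listed as annexin partners were lower. Of 14 listed, 13 were tested, and 6 fell, 1 rose and 6 did not pass (13.7% of all tested genes fell and 14.6% rose), and their median log2 fold change was -0.16. This list and those below were chosen with earlier results of these data known. Nothing is therefore read from their counts or medians. S100A10, the light chain of the ANXA2 complex, measured 114, 110 and 118 CPM with siADNP and 154, 166 and 156 CPM with siControl (log2 fold change -0.48 ± 0.05, SE; adjusted p = 1.07e-08, edgeR). S100A11, which binds the head of ANXA1, measured 239, 204 and 240 CPM against 307, 346 and 288 CPM (-0.47 ± 0.06, adjusted p = 1.46e-07, edgeR). Both pairs of groups were separate, and the decrease of S100A10 was larger than that of ANXA2 on the log2 scale, while that of S100A11 was smaller than that of ANXA1.

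S100A6, a partner of ANXA2 and ANXA11, fell with a log2 fold change of -0.27. The giant scaffold AHNAK, which docks on the ANXA2 complex, and the endosomal sorting protein PDCD6IP both fell with -0.22. The ubiquitin ligase NEDD4 fell with -0.20, a call that ended with adjusted p-values of 0.0549, 0.0991, 0.133 and 0.0659 without siADNP replicate 2, siADNP replicate 3, siControl replicate 1 and siControl replicate 2, of 0.0934 in DESeq2 and of 0.185 with the GC offset. S100A4, a calcium-binding protein that binds ANXA2 and is linked to cell motility, was the member of this list that rose, from 8.26 ± 0.258 to 15.0 ± 1.29 CPM (SD, n = 3; log2 fold change 0.86 ± 0.13, adjusted p = 5.81e-06, edgeR). The calcium sensors PDCD6 (0.08), sorcin SRI (0.04) and PEF1 (-0.06) and the ANXA6 partners RASA1 (-0.05) and TBC1D15 (-0.15) did not pass. S100A1 had 0 reads in control and 3, 1 and 6 reads with siADNP.

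Genes of plasminogen activation, for which the ANXA2 complex is a docking point, differed in direction among themselves, with both activators and the urokinase receptor higher. Of 7 listed, 5 were tested, and 3 rose, 1 fell and 1 did not pass, where 14.6% of all tested genes rose and 13.7% fell. The median log2 fold change was 0.45, beside -0.0013 over all tested genes. As this list too was chosen with earlier results known, nothing is read from its counts or median. The urokinase gene PLAU rose from 21.5 ± 2.66 to 35.8 ± 2.14 CPM (SD, n = 3; log2 fold change 0.72 ± 0.09, adjusted p = 1.94e-07, edgeR), with 38.2, 34.4 and 34.7 CPM in the siADNP libraries, all above control. The tissue activator PLAT rose with 0.71 and the urokinase receptor PLAUR with 0.45. PLGRKT, a plasminogen receptor listed in the table under its older symbol C9orf46, fell with -0.34 (adjusted p = 0.0167, edgeR), a call that ended in DESeq2 (0.0997), with the GC offset (0.0535) and without siADNP replicate 1 (0.0662) or siControl replicate 2 (0.145). Plasminogen itself, PLG, had 1 read in all.

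The formyl peptide receptors through which secreted ANXA1 acts were barely detected. FPR2 had 0 reads, FPR3 had 1 read in control, and FPR1 had 4, 3 and 1 reads with siADNP and 0 in control. Of the 4 tested genes among ANXA1 receptors and kinases, 2 rose and 2 did not pass (14.6% of all tested genes rose), and the median log2 fold change was 0.15, beside -0.0013 over all tested genes. EGFR, the receptor kinase that phosphorylates ANXA1, rose from 92.6 ± 1.94 to 113 ± 11.8 CPM (SD, n = 3; log2 fold change 0.29 ± 0.06, adjusted p = 5.25e-04, edgeR). PRKCA rose with 0.26, a call that ended in DESeq2 (adjusted p = 0.0552) and without siADNP replicate 2 (0.107) or siControl replicate 2 (0.0611), and SRC (0.04) and TRPM7 (-0.08) did not pass.

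Annexins are recruited to plasma membrane lesions together with ferlins, calpains and ESCRT-III proteins. Of 22 listed genes of membrane repair 20 were tested, and 4 fell, 1 rose and 15 did not pass. These 5 of 20 compare with 28.3% of all tested genes, and the median log2 fold change of the 20 was -0.03. Myoferlin MYOF fell from 509 ± 22.1 to 391 ± 5.40 CPM (SD, n = 3; log2 fold change -0.38 ± 0.05, adjusted p = 8.07e-08, edgeR), the calpain subunit CAPN2 with -0.32 and the endocytic recycling ATPase EHD1 with -0.48. In each of these genes all siADNP libraries were below all control libraries. The other calls of this list were lost in several alternatives. CHMP2B fell with -0.18, a call that ended in DESeq2 (adjusted p = 0.0561), with the GC offset (0.246) and without siADNP replicate 1 (0.0628), siControl replicate 1 (0.0766) or siControl replicate 2 (0.0875). CAPNS1 rose with 0.16, a call that ended in DESeq2 (0.123), with the GC offset (0.496) and without siADNP replicate 3 (0.241) or siControl replicate 1 (0.0676), 2 (0.0676) or 3 (0.126). Both genes kept their direction in these alternatives. The caveolar genes CAV1 (-0.10) and PTRF (-0.13) did not pass, and dysferlin DYSF had 2 to 10 reads per library.

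ANXA5 binds phosphatidylserine, which flippases keep inside the membrane and scramblases expose. Of 18 listed genes of phosphatidylserine exposure and recognition 15 were tested, and 4 rose, 3 fell and 8 did not pass. Over all tested genes 14.6% rose and 13.7% fell. The list's median log2 fold change was 0.05, beside -0.0013 over all. The engulfment receptor MERTK rose from 10.3 ± 0.266 to 16.0 ± 2.14 CPM (SD, n = 3; log2 fold change 0.62 ± 0.13, adjusted p = 3.44e-04, edgeR), and the bridging protein MFGE8 rose with 0.46. GAS6, the ligand that bridges phosphatidylserine to MERTK and AXL, fell with -0.61, and PLSCR4, of the scramblase family, with -1.17, from 6.61 ± 1.02 to 2.93 ± 0.421 CPM (SD, n = 3).

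AXL rose with 0.23 and PROS1, the other bridging ligand, fell with -0.35. The AXL call ended in DESeq2 (adjusted p = 0.110), with the GC offset (0.0694) and without siADNP replicate 3 (0.148), siControl replicate 1 (0.145) or siControl replicate 2 (0.0528). The PROS1 call ended in DESeq2 (0.0533) and without siControl replicate 2 (0.102). The scramblases ANO6 (0.10) and XKR8 (0.05) and the flippase subunit TMEM30A (0.04) did not pass.

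**Figure D5:**
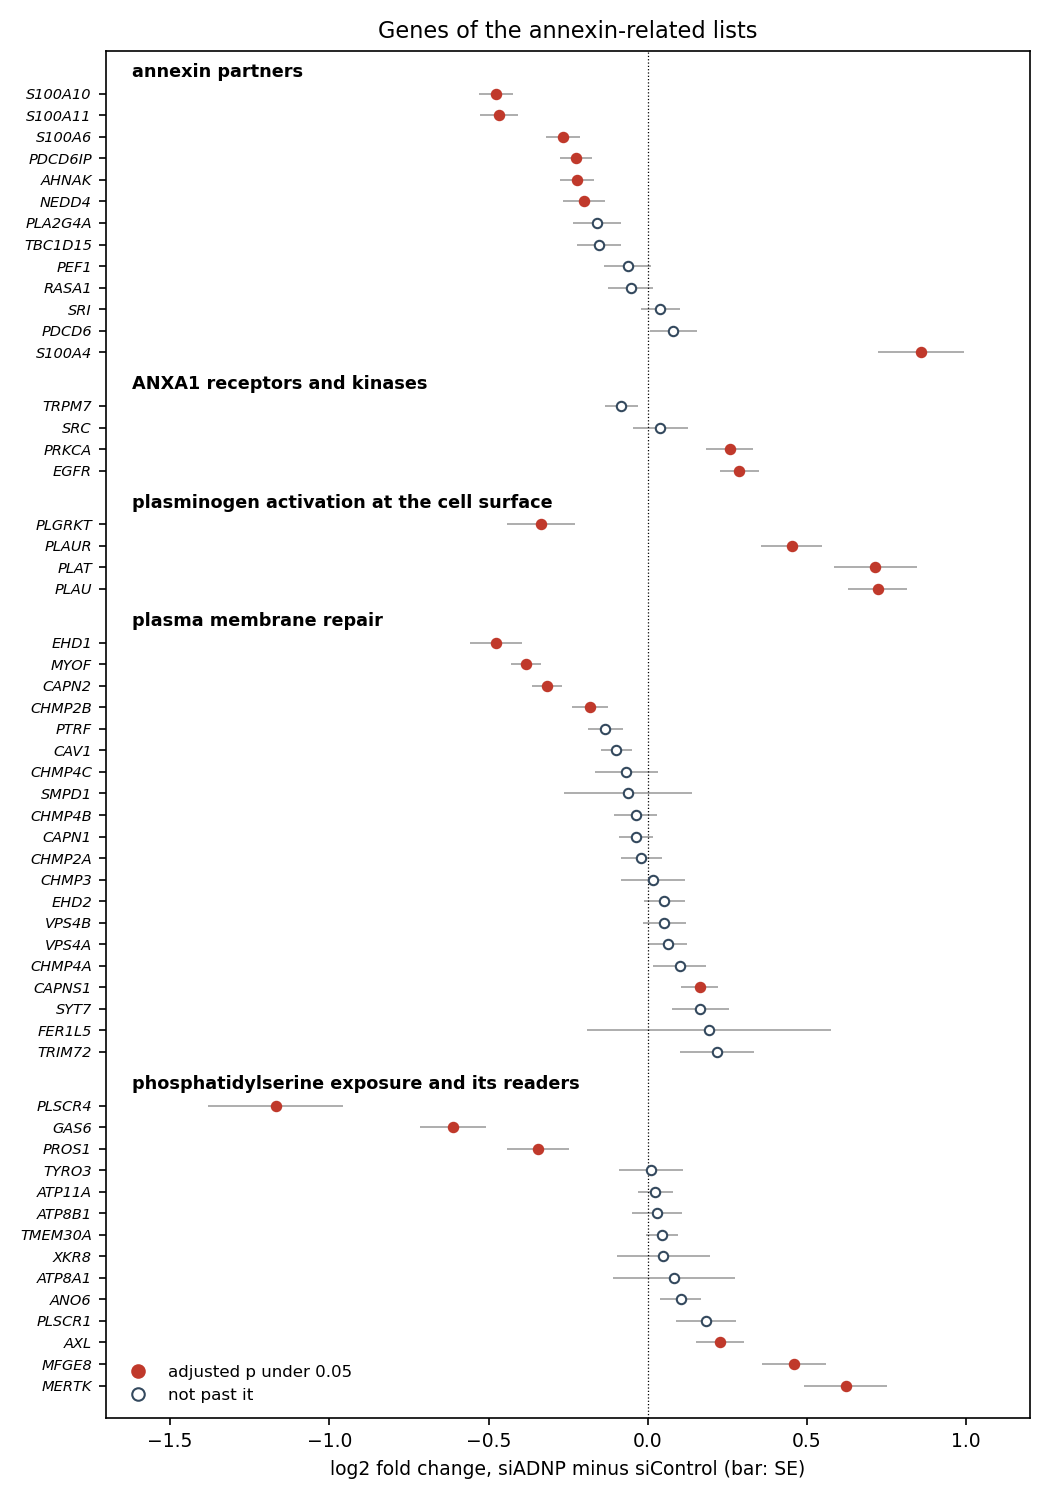
Log2 fold change (siADNP minus siControl) with SE for the tested genes shown of the 5 annexin-related lists, filled where the adjusted p is under 0.05. Among annexin partners 6 filled points lie below 0 and S100A4 lies at 0.86, whereas 3 plasminogen activation genes (PLAU, PLAT and PLAUR) are filled and above 0.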

How the data were processed

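Total RNA libraries were made with a Nugen kit, per the labels' protocols. The authors deposited raw counts of reads per gene symbol; STAR, HTSeq, DESeq2 and hg19 are named in the submitters' processing notes. The sources used here give neither annotation nor strand setting, so overlapping or antisense genes may share reads. A second deposited table, of variance-stabilised values, was not used here. Lines that name no gene held 71.7% to 73.6% of reads per library and were left out. Their share was 73.6%, 72.8% and 72.8% with siADNP and 71.7%, 72.3% and 71.8% with siControl. The part of this difference in the results was not tested.

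Counts were tested in edgeR 4.0.16 (R 4.3.3): filterByExpr with a minimum count of 10, TMM scaling, then glmQLFit and a two-sided glmQLFTest, with Benjamini-Hochberg adjustment over all 12489 tested genes. Each SE is the size of the log2 fold change over the square root of F. CPM values use TMM-scaled library sizes. Lengths and GC content come from GENCODE 29 transcripts (GRCh38), matched by symbol for 96.7% of tested genes. Alternatives were DESeq2 1.42.0, upper-quartile scaling, library totals, other filters, a GC offset, a replicate block and leaving out each library. The edgeR and DESeq2 fits were run on simulated counts with changes larger than that of any member and no GC trend. Such a run cannot show how the fits treat smaller changes.

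Members and lists were chosen with earlier results of these data known. Beside ADNP and all ANXA rows, the genes named are up to 4 per list with the smallest p. The other genes of the lists, and the markers, were named after their values were seen. Some tested genes of the lists enter the counts but are not reported here.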

Additional observations from a re-analysis of the deposited data

How the results depend on the processing

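The 5 lower and 1 higher calls among annexin members kept their number in all 14 alternatives, and each of these 6 genes kept its direction and passed in each of them, which supports nothing further, as the members were chosen by these values. ANXA1 ranged from -0.82 without siADNP replicate 3 to -0.69 with the GC offset (log2 fold change). DESeq2 called 1100 genes higher and 1071 lower over the whole table, against 1824 and 1714 in edgeR. Members with differences near 0 changed sign when 1 library was left out: ANXA7 ranged from -0.020 (without siControl replicate 3) to 0.053, and ANXA9 from -0.11 (without siControl replicate 1; -0.10 without siADNP replicate 3) to 0.39 (without siControl replicate 2). SRC turned to -0.047 with the GC offset, with and without the replicate block, and ranged from -0.0085 (without siADNP replicate 2) to 0.085 with 1 library left out. The cause was not tested. Of 532 values of 38 genes under alternatives, 478 kept direction and side of the threshold, 48 lost their call and 6 changed sign. Scaling choices moved the median of all genes by at most 0.025 (log2).

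Replicate numbers showed no clear shared effect: deviations of same-numbered libraries correlated with r of 0.02, -0.04 and -0.03. Those of differently numbered libraries correlated with r from -0.03 to 0.06. Such correlations cannot show whether the libraries were made in pairs. With the replicate block 1695 genes were called higher and 1542 lower, ANXA1 stood at -0.76, ANXA10 lost its call (adjusted p = 0.0597), as did CAPNS1 (0.0573), and no annexin member lost one. Depth limits ANXA9 and ANXA13, and annexins with near-identical copies may be undercounted where reads align to several places.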
